A study of Homo sapiens and Mus musculus with 12 samples.

Results

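The NKR-P1 receptors, KLRG1 and their close relatives are lectin-like receptors on the surface of natural killer (NK) cells. Their genes were taken by symbol from the deposited count tables of mouse and human NK cells: Klrb1a, Klrb1b, Klrb1c, Klrb1f, Klre1, Klri2 and Klrg1 in mouse, and KLRB1, KLRG1 and KLRF1 in human. These are 10 of 40325 rows, 7 of 22021 in the mouse table and 3 of 18304 in the human table. The rule used their symbols only.

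RNA-seq was performed on splenic NK cells of 3 WT and 3 KO samples, and on NK92MI cells, a human NK line that makes its own IL-2, of which 3 libraries were treated with the EHMT2 inhibitor BIX-01294 and 3 with its solvent DMSO. WT mice were Ehmt2 flox/flox, with loxP sites flanking part of Ehmt2, the gene of a histone H3K9 methyltransferase, and KO mice were Ehmt2 flox/flox; Ncr1 iCre, in which the Ncr1 locus, which encodes NKp46 on NK cells, drives a Cre recombinase. All mice were on a C57BL/6J background, adult and matched for age and sex, and since only the KO mice carried iCre, its presence and the deletion cannot be told apart. The genotype label of the KO samples reads Ezh2-KO whereas their titles name EHMT2, and the titles were followed. The treatment described for this line is 0.25 μM BIX-01294 or DMSO for 5 days, in a legend that does not mention the RNA-seq libraries. Neither separate animals nor separate cultures are stated for the replicates, so p-values measure the spread between these libraries only.

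Library totals lay between 25891680 and 37438868 counts in mouse and between 16579469 and 17165446 in human, and 13189 mouse and 12727 human genes passed the filter on low counts. Ehmt2, the targeted gene, was counted at 275, 284 and 285 CPM (counts scaled by library size after TMM normalization) in WT and at 171, 143 and 137 CPM in KO, a log2 fold change of −0.91 (SE 0.10, edgeR adjusted p = 0.0162). The pan-NK list, 12 genes of NK cells in general without the lectins described here, took 0.526, 0.889 and 0.549% of all reads in the WT libraries, by replicate number, and 1.005, 1.16 and 1.15% in those of KO. WT replicate 2 was thus the WT library nearest to KO. Macrophage markers summed to between 2564 and 6598 CPM in WT and between 1376 and 2501 CPM in KO, with 9 of 9 lower in KO and 5 called. B cell markers summed to 355 to 1077 CPM in WT and 29.3 to 321 in KO, neutrophil markers to 59.96 to 632 and 1.62 to 69.5, erythroid markers to 214 to 349 and 97.8 to 130, and T cell markers to 139 to 235 and 92.2 to 194, although of 6 T cell markers Cd3d (log2 fold change 0.52) and Cd3g (0.59, edgeR adjusted p = 0.0452) were higher in KO. Called lower were 0 of 6 B cell, 1 of 5 tested neutrophil, 6 of 6 erythroid and 0 of 6 T cell markers, against 7.43% of all tested genes. Sums of dendritic cell markers overlapped, at 982 to 1317 CPM in WT and 1044 to 1336 in KO. Of these 5 markers 4 were lower in KO and 1 was called lower. Itgax alone was higher, with a mean of 784 CPM in WT and 1038 CPM in KO. The sums also overlapped for type 1 innate lymphoid cells (327 to 425 and 269 to 370) and for type 2 with basophils (84.4 to 124 and 108 to 136). Lower in KO were 3 of 5 type 1 markers and 4 of 5 tested type 2 and basophil markers, with 0 called in either list. In the second list Gata3 alone was higher, with a mean of 61.8 CPM in WT and 94.2 CPM in KO. No marker of these lists was at 0 in all libraries. In such bulk samples fewer NK cells and less RNA per NK cell cannot be told apart. The markers used to sort the cells for RNA-seq are not given in the sources used here, and the study's flow cytometry gates splenic NK cells on NK1.1, the protein of Klrb1c.

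As background, the NKR-P1 receptors are paired: some activate the NK cell through adaptor proteins with immunoreceptor tyrosine-based activation motifs, others inhibit it through an immunoreceptor tyrosine-based inhibitory motif (ITIM) in their own tail, and several bind Clr proteins, which the Clec2 genes encode beside them on the same chromosome. KLRG1 is an inhibitory receptor for cadherins that marks terminally mature NK cells and effector T cells. KLRE1 pairs with KLRI1 to inhibit, or with KLRI2 to activate.

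A stretch at or near the start of the coding sequence is shown for 9 genes. This part encodes the tail inside the cell, where inhibitory members carry their ITIM. The 66 bases come from GENCODE transcripts (M21 for mouse, v44 for human). Capitals mark a tyrosine codon, any 2 codons and a codon for leucine, isoleucine or valine, read in frame on the coding strand, which is the core of an ITIM.
Klrb1a: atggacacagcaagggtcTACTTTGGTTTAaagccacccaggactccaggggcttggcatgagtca
Klrb1c: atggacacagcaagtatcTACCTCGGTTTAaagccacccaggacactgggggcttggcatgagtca
Klrb1b: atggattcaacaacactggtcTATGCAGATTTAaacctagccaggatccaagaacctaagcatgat
Klrb1f: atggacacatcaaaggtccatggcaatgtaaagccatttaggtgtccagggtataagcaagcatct
Klri1: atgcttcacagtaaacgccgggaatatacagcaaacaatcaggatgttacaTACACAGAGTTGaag
Klri2: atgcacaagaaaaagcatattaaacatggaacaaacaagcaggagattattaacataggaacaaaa
Klrg1: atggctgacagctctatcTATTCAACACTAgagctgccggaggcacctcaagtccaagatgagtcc
KLRG1: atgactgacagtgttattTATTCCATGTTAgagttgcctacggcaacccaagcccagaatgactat
KLRB1: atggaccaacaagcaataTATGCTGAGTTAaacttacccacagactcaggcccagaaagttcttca
The stretches are coding bases 19 to 84 of the annotated transcript for Klrb1a, 145 to 210 for Klrb1c and 1 to 66 for the others. Where a core was found, the stretch starts at the in-frame ATG nearest before the first core, so its place depends on the pattern. The full ITIM also asks for serine, isoleucine, leucine or valine at the residue next but one before the tyrosine. In the printed stretches the full pattern was held by Klrb1b, Klrb1c, Klri1, Klrg1 and KLRG1 and the core alone by Klrb1a and KLRB1, while Klrb1f and Klri2 held neither. Within the first 60 codons, a longer window, the same genes held the full pattern, the core alone or neither. The core was found within the first 60 codons of 24.4% of 21526 mouse and 23.6% of 19534 human coding genes, and the full pattern in 7.59% and 6.97%. The pattern thus did not separate the classes, since the activating Klrb1c held it as well. A match is a description of the letters and not of a working motif.

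The mouse NKR-P1 genes lie together on chromosome 6 of GRCm38, in the NK gene complex: Klrb1a at chr6:128609227-128623533, Klrb1c at chr6:128778485-128789215 and Klrb1b at chr6:128813706-128826331, all on the minus strand, and Klrb1f at chr6:129045901-129057464 on the plus strand. Klre1 (chr6:129577905-129585827, plus) and Klri2 (chr6:129729041-129740484, minus) follow in the same complex. Klrg1 (chr6:122270596-122282882, minus) lies apart from the complex on the same chromosome.

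To see how the receptors responded to the loss of Ehmt2, their values in KO and WT NK cells were compared. All 7 lectin genes had a higher mean in KO, by 1.41-fold (Klrb1b) to 2.13-fold (Klrb1a), and 5 of the 7 rose: Klrb1a, Klrb1c, Klrb1f, Klre1 and Klrg1 (edgeR adjusted p under 0.05, TMM normalization), although with the libraries scaled to the pan-NK genes none of the 7 was called and Klrb1b turned lower. Of all tested genes 4.44% were called higher by this rule. In 6 of the 7, all but Klrb1b, every KO library was above every WT library, which held for 19.1% of all tested genes. Their median log2 fold change was 0.84 against 0.01 over all genes tested. All 7 passed the filter on low counts, and all 7 had an unadjusted p under 0.05, as did 15.8% of all tested genes on the higher side. By DESeq2 all 7 were called higher, against 8.33% of all genes, and 6 of the 7 at the study's thresholds (adjusted p under 0.01 and |log2 fold change| over 0.5), against 3.0%. At those thresholds edgeR called no gene (0.0%). Genes called lower by edgeR were 7.43% of those tested, and those called in either direction 11.9%. The pan-NK list moved with them: 11 of its 12 genes were higher in KO and 5 were called, with a median log2 fold change of 0.74.

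**Figure D1:**
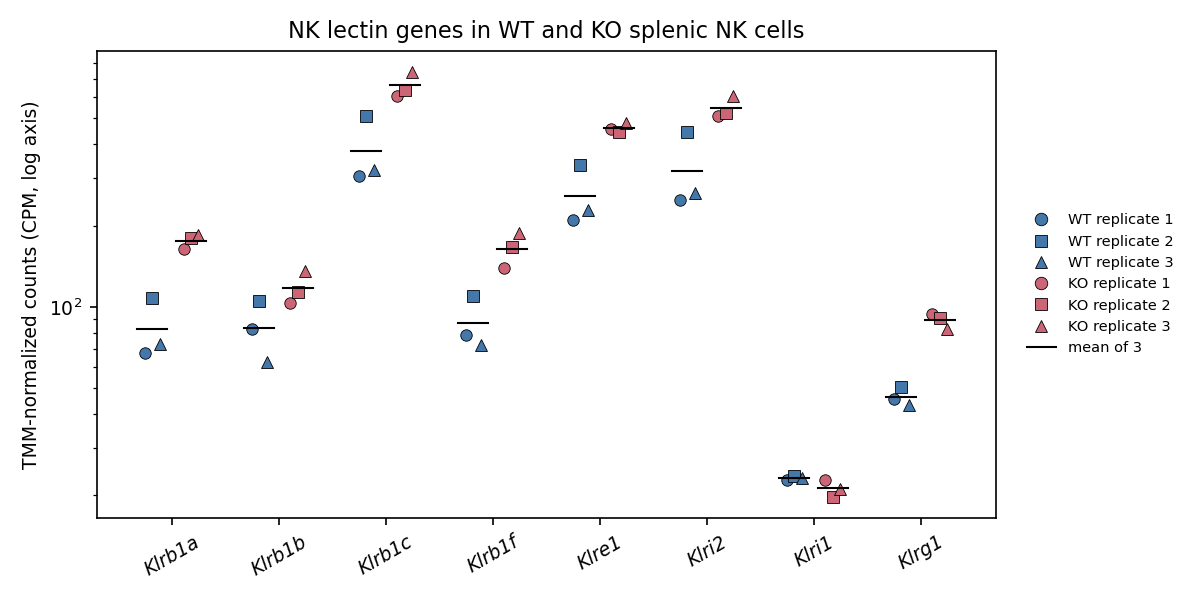
TMM-normalized counts (CPM, log axis) of the 7 lectin genes and of Klri1 in each of 3 WT (blue) and 3 KO (red) libraries, with the mean of 3 as a bar. With this normalization every KO library lies above every WT library except for Klrb1b, where they overlap, and for Klri1, where KO lies slightly below.

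Klrb1c encodes NK1.1, an activating receptor that signals through FcRγ and by which NK cells are recognized in C57BL/6 mice. It was counted at 304, 508 and 321 CPM in WT and at 607, 636 and 743 CPM in KO. It was the most abundant of the 7, and WT replicate 2 stood between the other WT libraries and KO. The log2 fold change was 0.81 (SE 0.20, edgeR adjusted p = 0.0462). Without WT replicate 1, WT replicate 3, KO replicate 2 or KO replicate 3 the adjusted p rose to between 0.121 and 0.158, and without WT replicate 2 the log2 fold change was 1.09 (edgeR adjusted p = 0.00241).

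Klrb1a encodes NKR-P1A, another activating member without an assigned ligand. Its counts were 67.1, 108 and 72.8 CPM in WT and 163, 181 and 184 CPM in KO. The groups stood well apart, and the log2 fold change of 1.09 (SE 0.17, edgeR adjusted p = 0.0269) was the largest of the 7. Klrb1f encodes NKR-P1F, which binds Clr-g and other Clr proteins. It rose from 78.6, 110 and 72.2 CPM in WT to 139, 167 and 187 CPM in KO, again with no overlap (log2 fold change 0.92, SE 0.18, edgeR adjusted p = 0.0326).

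Klrb1b encodes an inhibitory receptor of the family, which recognizes Clr-b on healthy cells. Its counts were 82.8, 105 and 62.5 CPM in WT and 104, 113 and 135 CPM in KO. KO replicate 1 lay just below WT replicate 2, so the groups overlapped. The log2 fold change of 0.49 (SE 0.19) did not pass (edgeR adjusted p = 0.106), but did by DESeq2 (adjusted p = 0.0494) and without WT replicate 2 (0.69, edgeR adjusted p = 0.0194). Klrb1, which encodes NKR-P1G and is not among the 7, was counted at 6.53, 11.9 and 6.55 CPM in WT and 11.9, 11.96 and 12.9 CPM in KO (log2 fold change 0.56, edgeR adjusted p = 0.142).

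Counts of Klrb1b and Klrb1c may be incomplete. A gene model that joins them on the same strand, Gm44511, covers 26.9% of the exon bases of Klrb1b and 13.9% of those of Klrb1c in GENCODE M21, and it is listed with 0 counts in every library. Stretches of 100 bases shared with transcripts of another gene were 22.3% of those in Klrb1b, 10.8% in Klrb1c and 0.5% in Klrb1a, and 0 in Klrb1f, Klre1, Klri2 and Klrg1. How reads on shared exons were treated is not given in the sources used here, and its part in these counts was not tested.

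Klrg1 had the smallest standard error of the 7. It was counted at 45.4, 50.5 and 43.1 CPM in WT and at 94.2, 90.6 and 82.6 CPM in KO. Here WT replicate 2 stood with the other WT libraries, and the groups did not overlap. The log2 fold change was 0.95 (SE 0.10, edgeR adjusted p = 0.0162), and with each library left out in turn it stayed between 0.89 and 1.01. The adjusted p by edgeR in these fits lay between 0.00207 and 0.104, and it was above 0.05 without WT replicate 3, KO replicate 2 or KO replicate 3. In the study's flow cytometry, KLRG1-positive NK cells were more frequent in KO bone marrow, while spleen and lung did not differ significantly. That staining reads protein, and the counts here read RNA.

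Klre1 and Klri2 had higher values in KO, and Klri1 did not. Klre1, whose product is needed for both complexes, was counted at 210, 335 and 228 CPM in WT and at 456, 446 and 481 CPM in KO (log2 fold change 0.84, SE 0.17, edgeR adjusted p = 0.0350). Klri2, the partner of the activating complex, was counted at 249, 445 and 264 CPM in WT and at 508, 524 and 605 CPM in KO. Its groups did not overlap either, but the test missed the threshold (log2 fold change 0.77, SE 0.22, edgeR adjusted p = 0.0571). It passed by DESeq2 (adjusted p = 0.00293) and without WT replicate 2 (1.09, edgeR adjusted p = 0.00221).

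Klri1, the partner of the inhibitory complex (chr6:129697218-129717132, minus), was counted at 22.9, 23.5 and 23.2 CPM in WT and at 22.8, 19.8 and 21.03 CPM in KO. The values were close in all 6 libraries, WT replicate 2 included (log2 fold change −0.13, SE 0.10, edgeR adjusted p = 0.354). Per 100 CPM of Klre1, Klri1 was at 10.9, 7.02 and 10.2 CPM in WT and at 4.997, 4.43 and 4.37 CPM in KO. Klri2 was at 119, 133 and 116 CPM per 100 CPM of Klre1 in WT and at 111, 117 and 126 CPM in KO. Thus the ratio of Klri1 to Klre1 was lower in every KO library than in every WT library (exact permutation p = 0.1, two-sided, which is the minimum for 3 libraries against 3), whereas the ratio of Klri2 to Klre1 overlapped (exact permutation p = 0.6). Over the 15 ratios compared, the Benjamini-Hochberg adjusted values of these exact tests were 0.214 and 0.6. Klre1 itself was higher in KO, so any gene with unchanged CPM also has a lower ratio to it. The share of all genes that separates in this way against Klre1 was not counted.

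**Figure D2:**
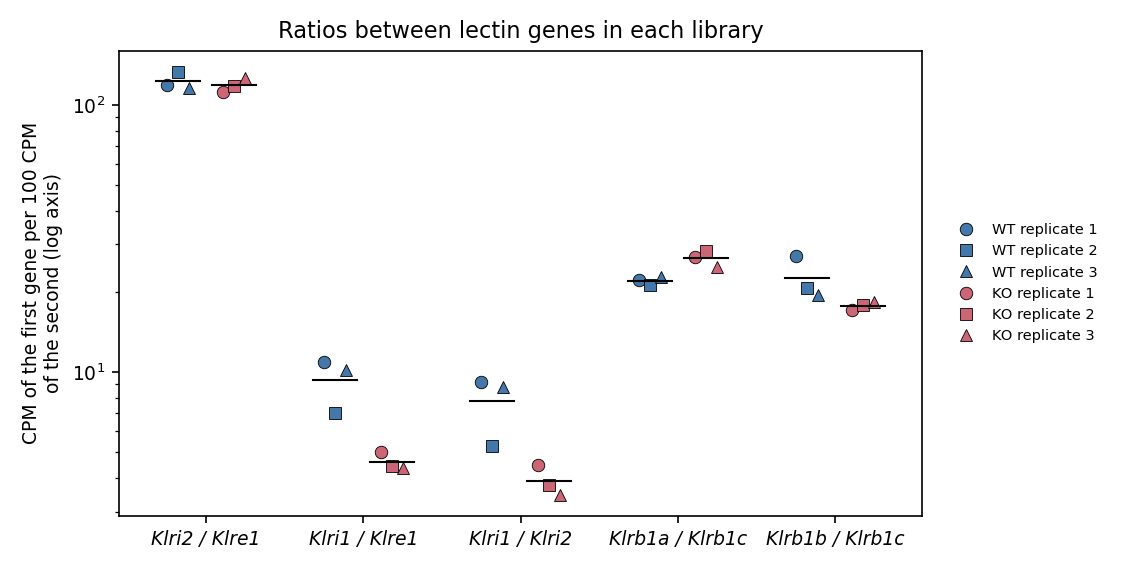
Ratios between lectin genes, as CPM of the first gene per 100 CPM of the second (log axis), in each of 3 WT (blue) and 3 KO (red) libraries, with the mean of 3 as a bar. Klri2 to Klre1 overlaps between the groups, and Klri1 to Klre1 falls from between 7.02 and 10.9 in WT to between 4.37 and 4.997 in KO. Klre1 itself is higher in KO.

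Within the NKR-P1 genes the ratios also differed. Klrb1a was at 22.1, 21.2 and 22.7 CPM per 100 CPM of Klrb1c in WT and at 26.9, 28.4 and 24.8 in KO. Klrb1b was at 27.2, 20.6 and 19.5 CPM per 100 CPM of Klrb1c in WT and at 17.1, 17.8 and 18.2 in KO. The activating Klrb1a was thus higher, and the inhibitory Klrb1b lower, against Klrb1c in every KO library, with an exact permutation p = 0.1 and an adjusted value of 0.214 for each. How many of all genes separate in this way against Klrb1c was not counted.

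Per kilobase of exon, Klrb1c stood at 128 CPM/kb in WT, followed by Klri2 (81.6), Klre1 (73.8), Klrb1a (51.8), Klrb1f (42.9), Klrb1b (37.4), Klrg1 (32.8), Klri1 (27.7) and Klrb1 (5.94). In WT the ranges over the 3 libraries overlapped between every pair of neighbours in this order from Klrb1c down to Klrg1. Klri1 and Klrb1 each lay below the range of the gene before them. In KO the levels per kilobase were 224 for Klrb1c, 139 for Klri2, 132 for Klre1, 110 for Klrb1a, 81.2 for Klrb1f, 63.0 for Klrg1, 52.6 for Klrb1b, 25.3 for Klri1 and 8.71 for Klrb1. Klrg1 stood ahead of Klrb1b there, though their ranges overlapped in both genotypes. In KO the only other neighbours in this order whose ranges overlapped were Klri2 and Klre1.

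Since most pan-NK genes were also higher in KO, the fits were repeated with the libraries scaled to those 12 genes. They were Ncr1, Klrk1, Klrd1, Il2rb, Itga2, Eomes, Tbx21, Txk, Prf1, Gzma, Nkg7 and Sh2d1b1. By RT-qPCR the study itself reports higher Il2rb, Tbx21 and Prf1 mRNA in KO NK cells. Scaling to the 12 genes removes any change that they share with the lectins, whatever its cause. With this scaling the median log2 fold change of all genes was −0.72, and that of the 7 lectin genes was 0.17. By edgeR none of the 7 was called, and 0 had an unadjusted p under 0.05, while 0.288% of all genes were called higher and 55.1% lower. Klrb1a kept the largest log2 fold change (0.42, SE 0.21, edgeR adjusted p = 0.0963), followed by Klrg1 (0.24) and Klrb1f (0.23), while Klrb1b turned to −0.20. Per 100 CPM of the geometric mean of the pan-NK genes, Klrb1a was at 23.1, 22.9 and 23.9 CPM in WT and at 32.4, 30.2 and 30.7 in KO. These values did not overlap and WT replicate 2 lay with its group (exact permutation p = 0.1, adjusted 0.214). Klrb1f, at 27.0, 23.3 and 23.7 CPM in WT and 27.6, 27.9 and 31.2 in KO, did not overlap either (exact permutation p = 0.1, adjusted 0.214). The share of all genes that separates on this scale was not counted. Klrg1 was at 15.6, 10.7 and 14.1 CPM in WT and at 18.7, 15.2 and 13.7 in KO on the same scale, with overlap. Klri1 fell on it, from 7.87, 4.997 and 7.62 CPM in WT to 4.51, 3.31 and 3.50 in KO, and its scaled log2 fold change was −0.85 (SE 0.27, edgeR adjusted p = 0.0217), near the median of all genes on this scale.

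**Figure D3:**
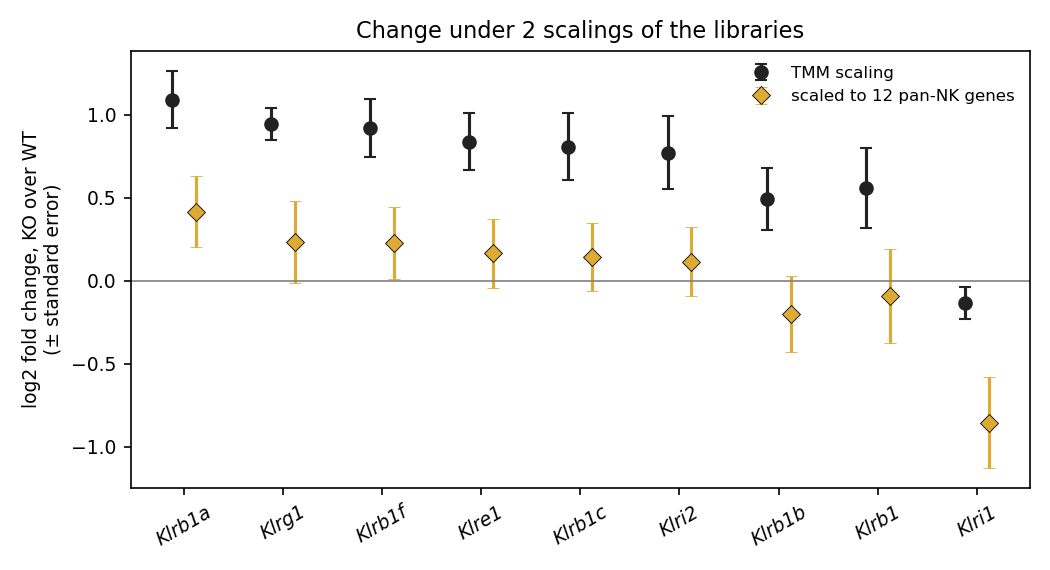
Log2 fold change of KO over WT with its standard error, for the 7 lectin genes, Klrb1 and Klri1, after TMM normalization (circles) and after scaling to 12 pan-NK genes (diamonds). With TMM the 7 genes lie between 0.49 and 1.09, and after scaling to pan-NK genes they lie between −0.20 and 0.42 while Klri1 lies at −0.85.

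Klrg2, a distant relative of Klrg1, was near the detection limit, with 24, 8 and 12 counts in WT and 2, 0 and 4 in KO. All KO counts were below all WT counts, and the log2 fold change of −2.91 (SE 0.81) missed the threshold (edgeR adjusted p = 0.0553).

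The genes whose pattern over the 6 libraries was nearest to that of Klrb1c were Klri2, Klhl4 and Klrd1. Their centred log2 CPM differed from that of Klrb1c by a root mean square of 0.04, 0.04 and 0.05, against a median of 0.51 over the 13188 other tested genes. For Klrg1 the nearest were Plekha7, Socs1 and Ahi1, at 0.08, 0.10 and 0.11 against a median of 0.50. Thus the genes nearest to Klrb1c held another of the 7 and a further lectin of the complex, and those nearest to Klrg1 held none.

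Around Klrb1c, 56 protein-coding genes within 1.6 Mb are listed in the table and 41 were tested. Of the 23 tested genes with Klr symbols, 13 rose and 0 fell, against 4.44% and 7.43% of all tested genes, and their median log2 fold change was 0.79. Of the 18 other genes in the same window, 0 rose and 3 fell by edgeR, with a median of −0.35. Of the 23 Klr genes 21 had values above 0, and of the 18 others 6 had. Several of the others lie outside the cluster of Klr genes. With the libraries scaled to the pan-NK genes, 0 of the 23 were called higher and 2 lower by edgeR, with a median of 0.13, and 0 of the 18 others were called higher and 13 lower, with a median of −1.10. The Klr genes of the window with values below 0 after TMM normalization were Klri1 and Klra17 (log2 fold change −0.99, edgeR adjusted p = 0.0813). Klra2, which lies outside the window, also had a value below 0 (−0.53, edgeR adjusted p = 0.277).

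**Figure D4:**
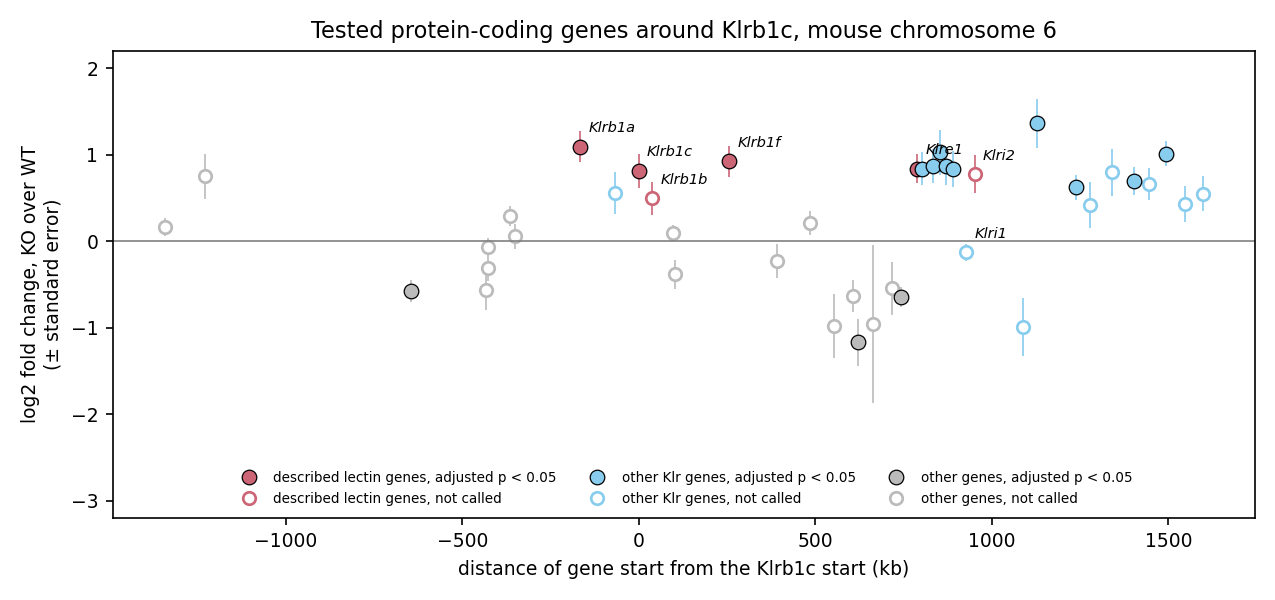
Log2 fold change of KO over WT with its standard error, after TMM normalization, for the 41 tested protein-coding genes within 1.6 Mb of Klrb1c, by distance of the gene start from that of Klrb1c (kb). Filled points passed an edgeR adjusted p of 0.05, and the filled points above 0 are all Klr genes (red and light blue), 13 in number.

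The neighbouring receptor families are given for comparison. All 5 genes of the CD94/NKG2 family rose, where 4.44% of all tested genes did, with a median log2 fold change of 0.87. Scaled to the pan-NK genes the median was 0.20 and none of the 5 was called (edgeR adjusted p between 0.172 and 0.597). Klrd1, which encodes CD94, reached 0.84 (SE 0.19, edgeR adjusted p = 0.0416), Klrk1, which encodes NKG2D, 0.87 (SE 0.20, 0.0414), Klrc2 0.87 and Klrc1 0.83. Klrd1 and Klrk1 are also among the 12 pan-NK genes. Of 11 tested Ly49 genes 4 rose and 0 fell, with a median of 0.62: Klra10 (1.01), Klra5 (1.36), Klra6 (0.62) and Klra9 (0.69). Scaled to the pan-NK genes, the Ly49 median was −0.07 and Klra6 stood at −0.07. With that scaling 0 Ly49 genes rose and 2 fell, Klra17 (−1.75, edgeR adjusted p = 0.00748) and Klra2 (−1.31, edgeR adjusted p = 0.0217). The Ly49 genes resemble each other closely in sequence, so reads may have been split between them. Among other genes of the complex, Gabarapl1, an autophagy gene, fell by 0.65 on the log2 scale, Ybx3 by 0.46, and Clec9a, a receptor of dendritic cells, by 1.17.

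Of the ligand genes of these receptors, Cdh1 alone passed the test after TMM normalization. By that rule 7.43% of all tested genes were called lower. Of 10 ligand genes 8 are listed in the mouse table and 4 were tested. Clec2d, which encodes Clr-b, was at 14.9 ± 1.40 CPM in WT and 12.7 ± 3.31 CPM in KO (SD, n = 3), with a log2 fold change of −0.23 (edgeR adjusted p = 0.432). Clec2i, which encodes Clr-g, was at 59.6 ± 4.64 CPM in WT and 63.8 ± 2.61 CPM in KO (0.10). Cdh1, which encodes E-cadherin, a ligand of KLRG1, fell from 45.9, 48.6 and 50.5 CPM in WT to 23.4, 29.95 and 32.5 CPM in KO, with no overlap (−0.76, SE 0.13, edgeR adjusted p = 0.0279). With the libraries scaled to the pan-NK genes, edgeR called 3 of the 4 lower, against 55.1% of all genes. They were Clec2d (−0.96), Clec2i (−0.62) and Cdh1 (−1.50).

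Of 16 tested signalling genes downstream of the receptors 2 rose and 0 fell, against 4.44% and 7.43% of all tested genes. The 2 were Cd247, the CD3ζ chain that NK receptors use as an adaptor (log2 fold change 0.69, SE 0.12, edgeR adjusted p = 0.0279), and the kinase gene Lck (0.73, SE 0.19, 0.0484). The ITAM adaptors Fcer1g and Tyrobp stood at 0.30 and 0.32 and were not called, although their groups did not overlap. Ptpn6, which encodes the phosphatase SHP-1 that ITIMs recruit, stood at −0.59 (edgeR adjusted p = 0.0526), also without overlap. Of 18 transcription factors of NK cells 4 rose and 0 fell, against the same shares of all tested genes. They were Id2 (0.89, SE 0.14, edgeR adjusted p = 0.0269), Gfi1 (0.86), Tbx21, which encodes T-bet (0.90), and Nfil3 (0.65). With the libraries scaled to the pan-NK genes none of these 6 genes was called higher: Cd247 stood at −0.003, Nfil3 at −0.06, Lck at 0.04, Id2 at 0.18, Gfi1 at 0.18 and Tbx21, which is itself one of the 12 scaling genes, at 0.22. Under that scaling edgeR called 0 of the 16 signalling genes higher and 8 lower, and 0 of the 18 transcription factors higher and 2 lower. Of all tested genes it called 0.288% higher and 55.1% lower.

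In NK92MI cells the human lectins were read after inhibition of EHMT2 by BIX-01294. The receptors KLRB1 and KLRF1 had 3 to 11 counts a library in this line and KLRG1 30 to 47, so that only KLRG1 was tested, and it was not called. The ligands of KLRB1 and KLRF1, in contrast, were counted at higher levels and rose. By edgeR 36.9% of all tested human genes were called, 18.4% higher and 18.4% lower, and EHMT2 itself fell by 0.58 on the log2 scale, from 57.1, 61.6 and 54.3 CPM in DMSO to 40.4, 39.3 and 35.8 CPM in BIX. NCAM1, PRF1 and GZMB, genes of NK cells, were present in all 6 libraries, and the monocyte gene CD14 had at most 0.548 CPM in any. The DMSO values are given in the order of the table, whose column names do not tie them to sample numbers.

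KLRG1 (GRCh38 chr12:8950044-9010760, plus) had 47, 38 and 39 counts in DMSO and 31, 30 and 33 counts in BIX, or 2.74, 2.22 and 2.31 CPM and 1.89, 1.76 and 1.95 CPM. Every BIX library was below every DMSO library, as in 23.9% of all tested genes. The log2 fold change of −0.37 (SE 0.24) did not pass (edgeR adjusted p = 0.244, unadjusted p = 0.142, DESeq2 adjusted p = 0.39).

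KLRB1 (chr12:9594551-9607916, minus), which encodes CD161, had 3, 7 and 8 counts in DMSO and 6, 5 and 5 in BIX, with overlap. KLRF1 (chr12:9827481-9845007, plus), which encodes the activating receptor NKp80, had 6, 4 and 4 counts in DMSO and 8, 11 and 6 in BIX, where the highest DMSO library had the count of the lowest BIX library. Neither passed the filter. Without it, the log2 fold change of KLRF1 was 0.85 (SE 0.60, edgeR adjusted p = 0.356) and that of KLRB1 was −0.14 (SE 0.65, edgeR adjusted p = 0.913). An antisense lncRNA covers 7.4% of the exon bases of KLRB1, and its reads cannot be told apart from those of KLRB1 without strand.

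**Figure D5:**
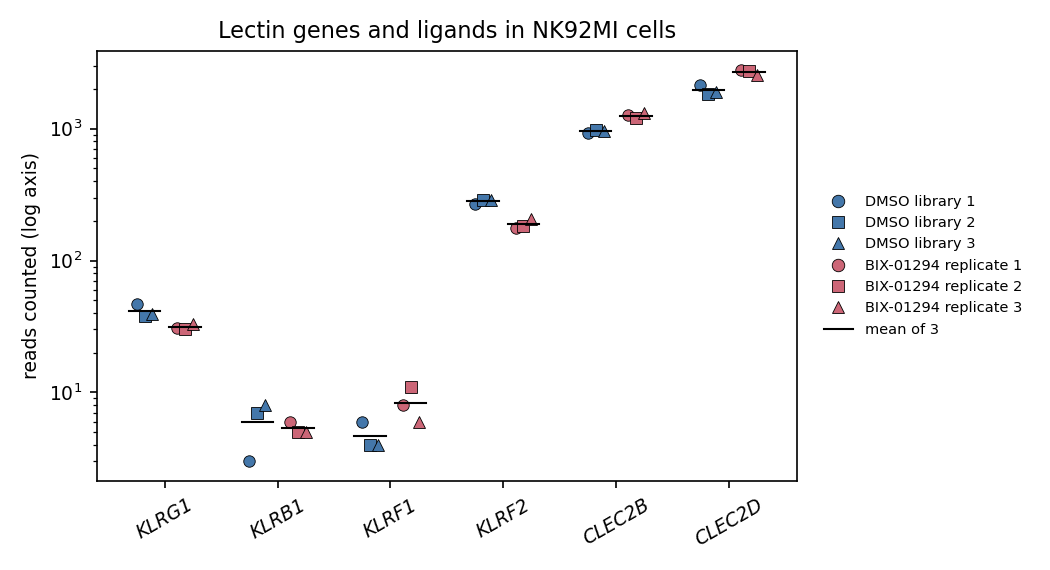
Reads counted (log axis) for KLRG1, KLRB1, KLRF1, KLRF2 and the ligand genes CLEC2B and CLEC2D in 3 DMSO (blue) and 3 BIX-01294 (red) libraries of NK92MI cells, with the mean of 3 as a bar. KLRB1 and KLRF1 had between 3 and 11 reads in every library, and KLRF2 is lower and CLEC2B and CLEC2D are higher in every BIX library.

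KLRF2, the neighbour of KLRF1 that encodes the activating receptor NKp65, was counted at higher levels than KLRF1 in this line. It fell from 15.6, 16.9 and 16.9 CPM in DMSO to 10.8, 10.8 and 12.1 CPM in BIX, with no overlap (log2 fold change −0.55, SE 0.11, edgeR adjusted p = 0.00151). CLEC2B, which encodes AICL, the ligand of NKp80, rose from 54.2, 57.3 and 56.5 CPM to 77.1, 70.7 and 77.2 CPM (0.42, SE 0.07, edgeR adjusted p = 0.000418). CLEC2D, which encodes LLT1, the ligand of CD161, rose from 124, 108 and 113 CPM to 169, 162 and 150 CPM (0.48, SE 0.07, edgeR adjusted p = 0.000185). Both ligand genes were higher in every BIX library.

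Of the CD94/NKG2 genes, KLRD1 rose by 0.65 on the log2 scale, while KLRC1 fell by 0.38 and KLRC3 by 1.01. Of 15 tested signalling genes 3 rose, SMPD1 (0.29), CD247 (0.28) and GRB2 (0.17), and 8 fell, among them FYN (−0.66), ZAP70 (−0.50), PLCG2 (−0.53) and PLCG1 (−0.38). Among all tested human genes 18.4% rose and 18.4% fell. The adaptor gene TYROBP had at most 0.548 CPM in any library. Of 15 tested transcription factors 6 rose, among them RUNX3 (0.64) and ZEB2 (0.80), and 6 fell, among them ZNF683 (−1.50), KLF2 (−1.14), TBX21 (−0.46) and ID2 (−0.35). In mouse KO cells Tbx21 and Id2 had risen. The designs differ in species, cells and means, and the difference between them was not tested.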

How the data were processed

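Reads were trimmed by the authors with fastp 0.23.4, aligned with STAR 2.7.11b, allowing 2 mismatches, and counted per gene with HTSeq 2.0.3, per the submitters' processing notes and the study's methods. The deposited values are raw counts per gene symbol, for GRCm38 or GRCh38, without normalization. The annotation release and strand setting are not given in the sources used here, so sense and antisense reads cannot be told apart. In the human table the names of the control columns do not tie them to numbered samples, and they were used as a group. H3K9me2 data were not analysed here.

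Each species was fitted separately with edgeR 4.0.16 (R 4.3.3) by the quasi-likelihood test, with TMM normalization, filterByExpr (minimum count 10), Benjamini-Hochberg adjustment over all tested genes and a threshold of 0.05. The biological coefficient of variation was 18.2% in mouse and 7.55% in human. No pair of libraries was alike within sampling noise. Symbols that occur more than once were kept as separate rows, and none is a gene described here. Positions, exon lengths and sequences came from GENCODE M21 and v44.

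The genes described, the lists and the tests were chosen with earlier results of these data known. Named are all the lectin genes and, per list and direction, at most 4 called genes of smallest adjusted p. The 3 nearest patterns were sought for Klrb1c and Klrg1 by root mean square difference of centred log2 CPM (prior count 2). Alternatives were DESeq2 1.42.0, its size factors in edgeR, library totals, other filters, limma-voom (limma 3.58.1), the replicate number as a block, scaling to pan-NK genes, the study's thresholds and each library left out. The procedure was tested on simulated data.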

Additional observations from a re-analysis of the deposited data

How the results depend on the processing

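In KO against WT, DESeq2's size factors, library totals, a mean CPM of at least 1 and limma-voom gave the same 5 lectin genes as called. DESeq2 called 7, and 6 were called with no filter on low counts. With each library left out in turn, between 0 and 7 were called. They were 1 without WT replicate 1, 0 without WT replicate 3, KO replicate 2 or KO replicate 3 (where 6 had an unadjusted p under 0.05), 5 without KO replicate 1 and 7 without WT replicate 2. All 7 stayed higher in KO in these fits. The genes called by edgeR over all genes numbered 1565, 3087 by DESeq2, and between 0 and 3530 with each library left out. At the study's thresholds (adjusted p under 0.01 and |log2 fold change| over 0.5) edgeR called 0 genes (0.0%), none of them a lectin gene described here, of which 7 had an unadjusted p under 0.05. DESeq2 at those thresholds, added after seeing the data, called 1495 and 6 of the 7. Scaling to pan-NK genes gave 7301 called genes, 38 higher and 7263 lower against 585 and 980, and 0 of the 7. The signs of Klrb1b (−0.20), Klrb1 (−0.093), Cd247 (−0.0031), Nfil3 (−0.058) and Klra6 (−0.073) turned under it. The cause was not tested.

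With the replicate number as a block 3222 genes and 6 of the 7 were called. Same-numbered WT and KO libraries deviated with correlations of 0.28, 0.35 and −0.19, and libraries of unlike number with correlations between −0.44 and 0.28. Whether the numbers pair the samples is not stated. These correlations cannot decide it, because deviations from the mean of 3 libraries depend on each other. No paired analysis was possible for BIX against DMSO because the control columns carry no link to the numbered samples.

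In BIX against DMSO no alternative called KLRG1. Of all genes 4692 were called, between 3491 and 5021 with a library left out, 1485 at the study's thresholds by edgeR and 1484 by DESeq2. Depth limits KLRB1 and KLRF1, with 3 to 11 counts a library.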
